A study of Homo sapiens with 6 samples.

Results

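The 10 genes FOS, FOSB, FOSL1, FOSL2, JUN, JUNB, JUND, ATF3, EGR1 and IER2 encode AP-1 subunits and other immediate early factors. They were taken by name from a table of 26475 genes, with no measured value used, and all 10 passed the filter on low counts. The table holds 6 RNA-seq libraries of growing HepG2 cells, a human hepatocellular carcinoma line. The control group was HepG2 expressing eGFP, a fluorescent reporter protein (3 libraries), and the other group was HepG2 expressing TAF2, which is part of the TFIID complex that recognises core promoters (3 libraries). No stimulus, time course or further treatment is named for either group, and neither the vector nor whether a group was a single clone is stated in the labels. Separate cultures are not stated for the replicates. The p-values therefore rest on the spread among 3 libraries a group, which may be technical in part or in whole.

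AP-1 is a dimer of basic leucine zipper (bZIP) proteins. JUN proteins pair with each other or with FOS proteins, whereas FOS proteins need a JUN partner to bind DNA. Immediate early genes such as FOS, JUN, EGR1 and IER2 are switched on within minutes of a growth factor or stress signal without new protein synthesis. In liver, JUN is needed for normal hepatocyte proliferation during regeneration, and its activity is fed by the JNK and ERK kinase cascades.

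Most of these genes differed little between the groups. JUN and EGR1 rose with TAF2 and JUND fell, and the other 7 were not past the threshold of a Benjamini-Hochberg adjusted p of 0.05 in edgeR's quasi-likelihood test. The 3 called of 10 stand beside a background of 43.0% of 12902 tested genes called in either direction (20.6% higher and 22.4% lower with TAF2). The median log2 fold change of the 10 was -0.04 and that of all tested genes 0.00. Their median absolute log2 fold change was 0.10, against 0.13 over all tested genes. The largest change was that of JUN, at 1.25-fold.

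Promoter sequence was examined because several of these genes are controlled by well-known elements close to the start site. RefSeq promoter windows (GRCh38.p14) were found for 9 of the 10 genes, with 2 start sites for ATF3 and none for FOSL1, and the 250 bases before each start were searched. Capitals in the sequences mark every match to the elements searched: the cyclic AMP response element TGACGTCA with its half-site TGACGT, TGACATCA (the variant known from the JUN promoter, bound by JUN and ATF2), the CArG box of serum response factor, and a TATAA starting between -40 and -20. All were searched on both strands except TATAA, read on the gene's strand only, and the full element contains the half-site on both strands. The promoters of the 3 called genes are shown with that of FOS, the founding member, which differed least between the groups.
JUN (chr1:58784048-58784297, minus strand): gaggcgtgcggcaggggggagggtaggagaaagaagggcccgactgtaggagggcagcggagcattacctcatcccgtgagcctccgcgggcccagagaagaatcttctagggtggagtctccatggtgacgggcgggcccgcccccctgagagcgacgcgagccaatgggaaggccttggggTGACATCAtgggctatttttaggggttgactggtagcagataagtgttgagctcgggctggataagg
EGR1 (chr5:138465229-138465478, plus strand): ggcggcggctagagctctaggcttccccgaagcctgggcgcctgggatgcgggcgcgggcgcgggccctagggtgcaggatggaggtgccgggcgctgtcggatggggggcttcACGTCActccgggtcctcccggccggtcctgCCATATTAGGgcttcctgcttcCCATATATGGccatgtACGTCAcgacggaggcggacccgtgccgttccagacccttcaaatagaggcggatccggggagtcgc
JUND (chr19:18281623-18281872, minus strand): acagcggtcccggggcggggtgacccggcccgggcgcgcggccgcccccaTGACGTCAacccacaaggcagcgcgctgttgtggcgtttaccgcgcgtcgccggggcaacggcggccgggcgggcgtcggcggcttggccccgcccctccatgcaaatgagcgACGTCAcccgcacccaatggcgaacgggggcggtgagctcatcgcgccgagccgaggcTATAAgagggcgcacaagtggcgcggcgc
FOS (chr14:75278578-75278827, plus strand): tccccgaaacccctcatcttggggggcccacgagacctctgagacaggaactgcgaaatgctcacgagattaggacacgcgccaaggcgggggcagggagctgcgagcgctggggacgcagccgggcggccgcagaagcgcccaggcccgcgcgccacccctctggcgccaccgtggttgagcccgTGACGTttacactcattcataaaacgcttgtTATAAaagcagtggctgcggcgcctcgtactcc

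The 4 promoters carried different elements. JUN had 1 TGACATCA, starting at position -67 from the start site, and no TATAA. EGR1 had 2 CArG boxes at -105 and -83 and 2 half-sites at -136 and -67. JUND had the full TGACGTCA at -200, a further half-site at -87 and a TATAA at -29. FOS had a half-site at -64 and a TATAA at -33. Positions count the first base of a match backward from the start site.

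Over the 9 genes with a window, 5 held the half-site TGACGT (FOS, FOSB, FOSL2, JUND and EGR1), against 7.10% of 35116 promoter windows of the same length. A TATAA was found in 4 (FOS, FOSB, JUNB and JUND), against 3.91% of windows. JUN and ATF3 held TGACATCA (2.37% of windows), JUND alone held TGACGTCA (1.65%) and EGR1 alone a CArG box (1.16%). The AP-1 site TGANTCA, searched on both strands, was found in 0 of the 9, against 6.57% of windows. These matches describe letters in a window and are not measured binding sites. Elements were picked as known controls of several of these genes, so the shares are no test of enrichment. Elements more than 250 bases before a start, in FOS or any other gene, were not searched. Of the 4 genes with a TATAA, JUND fell and FOS, FOSB and JUNB were not called, where 43.0% of all tested genes were called. With so few genes, and with wide intervals for FOS and FOSB at low counts, this says nothing on the element.

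Totals per library ranged from 22276308 to 28024004 counts, and scaling factors from 0.9976 to 1.0027. TAF2 itself rose from 37.9 ± 2.31 to 48.6 ± 1.37 CPM (SD, n = 3 each), where CPM is the count scaled to a common library size; the edgeR adjusted p was 1.44e-08 at a log2 fold change of 0.36, SE 0.046. The 10 hepatocyte markers fixed for this line were all detected, and their summed level was 52100 to 53500 CPM in eGFP and 41700 to 43400 CPM in TAF2 libraries. APOB was a large part of these sums, at 23000 ± 883 CPM in eGFP and 19600 ± 1120 CPM in TAF2 (SD, n = 3 each). Of the 10, 9 fell and 1, FGB, rose, where 22.4% of all tested genes were called lower and 20.6% higher. Of 11 immune, endothelial and fibroblast markers, PTPRC, CD3E, DCN and LUM had no count in any library, and the sum of all 11 was 55.2 to 57.6 CPM in eGFP and 55.6 to 58.8 CPM in TAF2. Of the 3 tested, PDGFRB and COL1A1 rose and CD68 fell, beside the same background. The part of these markers in the results below was not tested. In bulk RNA, fewer cells carrying a transcript and less of it per cell cannot be told apart.

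**Figure D1:**
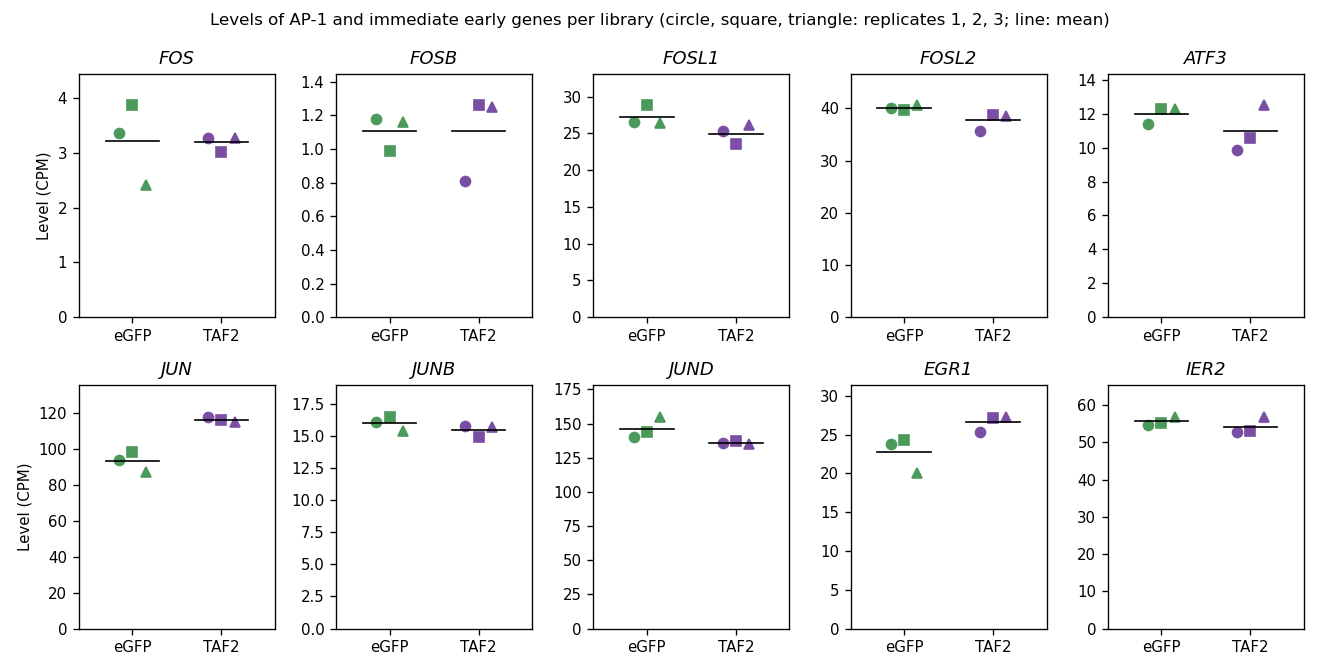
Level in CPM (y axis, from 0) of each of the 10 genes in the 3 eGFP and 3 TAF2 libraries (x axis); points are libraries, symbols mark replicates 1 to 3 and lines are group means. JUN and EGR1 lie higher in all TAF2 libraries than in any eGFP library, and FOSL1, FOSL2 and JUND lie lower in all.

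Among the JUN proteins, which every AP-1 dimer of FOS proteins needs, JUN rose and JUND fell. JUN, the strongly growth-promoting member, stood at 93.8, 98.5 and 87.1 CPM in the eGFP libraries and at 118, 116 and 115 CPM in the TAF2 libraries, always given in the order of replicates 1 to 3. The lowest TAF2 library was above the highest eGFP library, and the TAF2 libraries lay closer together. On the log2 scale this was a difference of 0.32 with SE 0.034 (edgeR adjusted p = 9e-10), or 1.25-fold with a 95% interval of 1.19 to 1.31.

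JUND, the member known for steady expression in resting cells, stood at 140, 144 and 155 CPM in eGFP and at 136, 137 and 135 CPM in TAF2. All TAF2 libraries were lower, but the gap to eGFP replicate 1 was small and eGFP replicate 3 stood above the other eGFP libraries. The difference was -0.11 on the log2 scale with SE 0.030 (edgeR adjusted p = 0.00386), a fold of 0.928 with a 95% interval of 0.889 to 0.968. Without eGFP replicate 3 the log2 fold change was -0.06 and the call was lost (edgeR adjusted p = 0.101). Over all 15 alternatives, by edgeR, DESeq2 or limma, adjusted p ran from 0.000856 to 1, and to 0.101 without the test against 1.5-fold.

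JUNB, often an antagonist of JUN in growth control, was not called. It stood at 16.1, 16.5 and 15.4 CPM in eGFP and at 15.8, 14.9 and 15.7 CPM in TAF2, and the groups overlapped. Its log2 fold change was -0.05, with a 95% interval of -0.18 to 0.09. JUNB overlaps HOOK2 on the opposite strand in GENCODE 29, and HOOK2 had a log2 fold change of -0.33. Whether counting used strand is not stated, so reads in the overlap cannot be assigned with certainty.

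The make-up of the JUN family moved with these changes. JUN held 37.5%, 38% and 33.8% of the JUN, JUNB and JUND counts in eGFP and 43.7%, 43.3% and 43.3% in TAF2 libraries. JUND held 56.0%, 55.6% and 60.2% in eGFP and 50.5%, 51.1% and 50.8% in TAF2. The ratio of JUN to JUND counts was 0.638 ± 0.0669 in eGFP and 0.856 ± 0.00867 in TAF2 (SD, n = 3 each). This ratio needs no scaling between libraries, and the highest eGFP value, 0.683, lay below the lowest TAF2 value, 0.848. The summed JUN family stood at 250 to 259 CPM in eGFP and 265 to 270 CPM in TAF2. Shares were compared with no test, since JUN and JUND were each tested above. They add up to the whole, so a rise of JUN alone lowers the share of JUND.

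**Figure D2:**
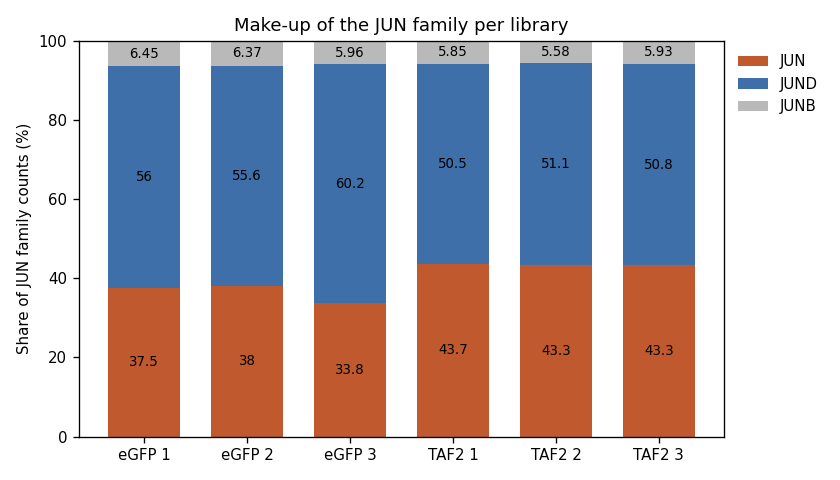
Share of JUN family counts in percent (y axis) held by JUN, JUND and JUNB in each of the 6 libraries (x axis), with the value printed in each segment. JUN takes 33.8% to 38% in eGFP and 43.3% to 43.7% in TAF2 libraries, and JUND 55.6% to 60.2% and 50.5% to 51.1%. Shares add up to the whole, so a larger JUN share by itself lowers that of JUND.

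None of the 4 FOS proteins was called. FOS, the prototype with a strong activation domain, was lowly expressed, with 60 to 91 counts in eGFP and 77 to 92 in TAF2. Its level was 3.36, 3.87 and 2.41 CPM in eGFP and 3.28, 3.02 and 3.28 CPM in TAF2. The 3 TAF2 libraries fell inside the eGFP range. The log2 fold change was 0.00 with a 95% interval of -0.32 to 0.32, and a change within that interval cannot be told from none in these libraries.

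FOSB, a close relative of FOS that also carries an activation domain, had 20 to 35 counts per library and stood at 1.18, 0.990 and 1.16 CPM in eGFP and 0.811, 1.26 and 1.25 CPM in TAF2. The groups overlapped fully, with the lowest and the highest value both in TAF2 libraries. The 95% interval of its log2 fold change ran from -0.52 to 0.51. FOSB overlaps ERCC1 on the opposite strand in GENCODE but not in RefSeq. By the RefSeq positions on chromosome 19, ERCC1 ends at 45451547 and FOSB starts at 45467996. ERCC1 had a log2 fold change of -0.19 (edgeR adjusted p = 0.00247).

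FOSL1 and FOSL2 encode FRA-1 and FRA-2, which lack the activation domain of FOS, and they made up most of the FOS family here. FOSL2 held 54.1% to 57.5% of family counts in eGFP and 54.8% to 58.3% in TAF2, and FOSL1 held 37.3% to 39.3% and 35.3% to 38.9%. FOS held 3.41% to 5.27% in all 6 libraries. The make-up of the family thus overlapped between the groups for all 4 genes, unlike that of JUN and JUND.

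FOSL1 stood at 26.5, 28.8 and 26.4 CPM in eGFP and at 25.3, 23.5 and 26.1 CPM in TAF2. Every TAF2 library was below every eGFP library, but eGFP replicate 3 and TAF2 replicate 3 nearly touched. The log2 fold change was -0.12 (95% interval -0.24 to -0.01, edgeR adjusted p = 0.0755), just short of the threshold. With scaling factors computed without chromosomes 4 and 11 it was past it (-0.14, edgeR adjusted p = 0.044). That scaling moved the median log2 fold change of all tested genes to -0.019, with 2294 called higher and 3181 lower. It leaves out the chromosome of FOSL1 itself, where the 719 other tested genes had a median log2 fold change of -0.28. No other alternative called FOSL1. Over all 15 alternatives, by edgeR, DESeq2 or limma, FOSL1's adjusted p ran from 0.044 to 1, and to 0.343 without the test against 1.5-fold.

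FOSL2 stood at 40.1, 39.8 and 40.6 CPM in eGFP and at 35.7, 38.8 and 38.6 CPM in TAF2. The groups did not overlap, and TAF2 replicate 1 stood apart below the other libraries. Its log2 fold change was -0.09 (95% interval -0.18 to 0.00, edgeR adjusted p = 0.112). An antisense gene, FLJ31356, overlaps FOSL2. Summed over the 4 genes, the FOS family stood at 70.5 to 73.5 CPM in eGFP and 65.1 to 69.2 CPM in TAF2.

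ATF3, a stress-induced bZIP factor that pairs with JUN proteins and often represses, was not called. It stood at 11.4, 12.3 and 12.3 CPM in eGFP and at 9.89, 10.6 and 12.5 CPM in TAF2. Here 2 TAF2 libraries lay below the eGFP range and 1 above it. The log2 fold change was -0.12 with a 95% interval of -0.29 to 0.06 (edgeR adjusted p = 0.282).

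EGR1, a zinc finger factor that binds GC-rich sites and is outside AP-1, rose. It stood at 23.8, 24.3 and 20.1 CPM in eGFP and at 25.4, 27.1 and 27.3 CPM in TAF2. The groups did not overlap, and eGFP replicate 3 was the lowest library by a wide margin. The difference was 0.23 on the log2 scale with SE 0.061 (edgeR adjusted p = 0.00232), or 1.17-fold with a 95% interval of 1.08 to 1.28. Without eGFP replicate 3 it was 0.15 and the call was lost (edgeR adjusted p = 0.0557). Over all 15 alternatives, by edgeR, DESeq2 or limma, adjusted p ran from 0.000163 to 1, and to 0.0557 without the test against 1.5-fold.

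NAB1 and NAB2, the corepressors that bind EGR proteins, both changed, in opposite directions. NAB1 fell from 51.3 ± 1.55 to 39.7 ± 2.28 CPM and NAB2 rose from 40.9 ± 2.05 to 51.6 ± 0.495 CPM (SD, n = 3 each). Their log2 fold changes were -0.37 and 0.34 (edgeR adjusted p = 4.98e-09 and 1.81e-08). EGR2, EGR3 and EGR4, the relatives of EGR1, had too few counts to be tested.

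IER2, a nuclear immediate early protein, was among the flattest of the 10. It stood at 54.8, 55.2 and 56.9 CPM in eGFP and at 52.9, 53.1 and 56.8 CPM in TAF2, and the groups overlapped. The log2 fold change was -0.03, a fold of 0.977 with a 95% interval of 0.923 to 1.03.

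**Figure D3:**
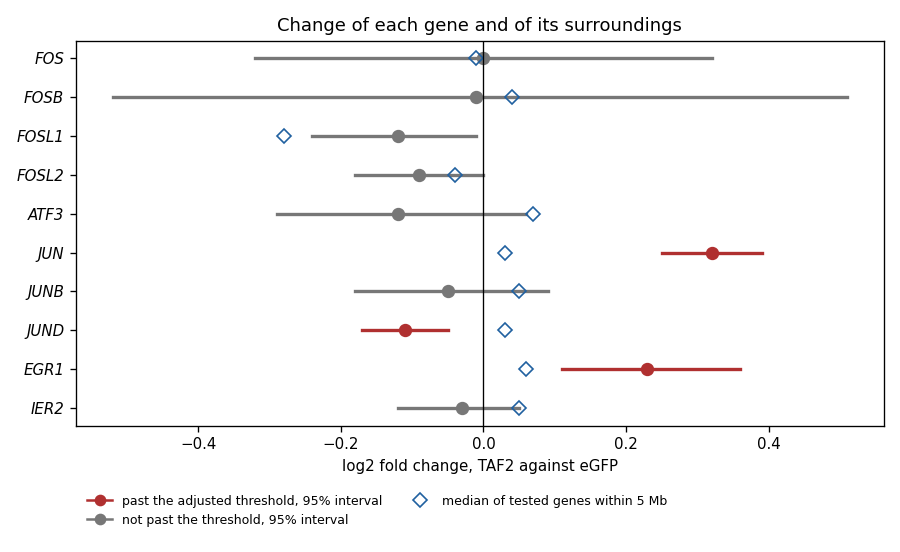
Log2 fold change of each gene, TAF2 against eGFP (x axis), with its 95% interval, and the median of the other tested genes within 5 Mb (diamonds). JUN and EGR1 lie right of 0 and JUND left of it, while FOSL1 at -0.12 sits above the -0.28 of its surroundings.

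In 5 of the 10 genes the groups did not overlap, 2 higher and 3 lower with TAF2, against a background of 50.6% of all tested genes (24.5% higher and 26.1% lower). This share and that of called genes were thus near or below those over all genes. All 3 called genes changed by less than 1.5-fold, and edgeR's test against that fold called 0 of the 10, with 0 at an unadjusted p under 0.05. The edgeR test against no change called 3 and DESeq2 3. Of the 10, 4 had an unadjusted p under 0.05.

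Of the 6 libraries left out in turn, only eGFP replicate 3 changed a call among the 10 genes. Within eGFP it was the lowest of 3 for FOS, FOSL1, JUN, JUNB and EGR1 and the highest for JUND, FOSL2 and IER2. Other libraries stood at the end of their group as often: eGFP replicate 2 was the highest for 6 of the 10 and TAF2 replicate 1 the lowest for 5. Set against the mean of the other eGFP libraries, eGFP replicate 3's log2 ratio was -0.59 for FOS, -0.26 for EGR1, -0.14 for JUN and 0.13 for JUND. Over 30 other tested immediate early genes it was the lowest of its group for 13 and over all tested genes for 30.5%, while eGFP replicate 2 was the highest for 19 of the 30 and for 33.7% of all genes. The total of eGFP replicate 3, 25011098 counts, and its 28S ribosomal RNA share of 0.909% lay inside the range of the other libraries (0.758% to 1.26%). Without it 1 of the 10 genes was called, JUN, at a log2 fold change of 0.27 (edgeR adjusted p = 7.38e-08). Over all 15 alternatives, by edgeR, DESeq2 or limma, JUN's adjusted p ran from 1.08e-24 to 1, and to 5.23e-07 without the test against 1.5-fold.

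**Figure D4:**
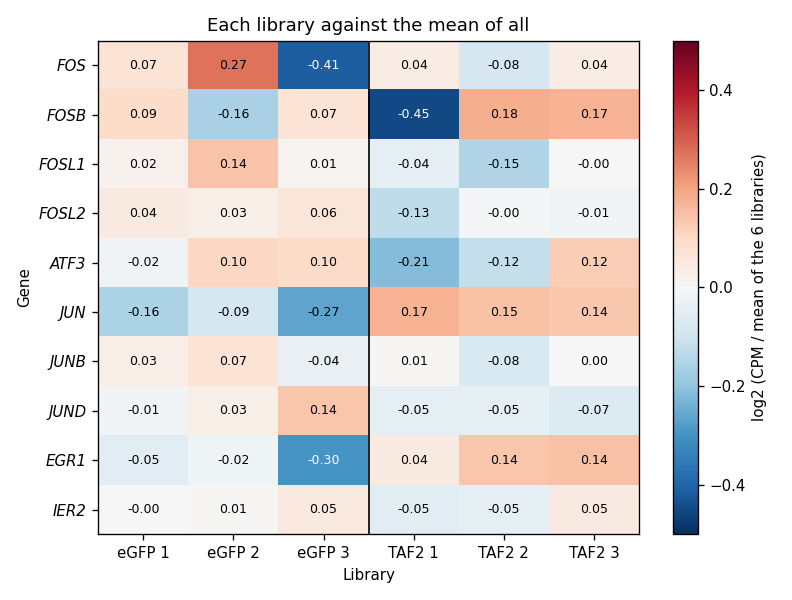
Log2 ratio of each library's CPM to the mean of the 6 libraries (colour and printed value) for the 10 genes (rows) in the eGFP and TAF2 libraries (columns). The eGFP replicate 3 column holds the lowest values of FOS, JUN and EGR1 and the highest of JUND.

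The spread between replicates also differed among the genes, as did their depth. In eGFP, FOS had 60 to 91 counts and EGR1 501 to 644. The coefficient of variation over 3 libraries was 23.1% for FOS and 10.1% for EGR1 in eGFP, against a median of 4.13% over all tested genes, and 4.73% and 3.87% in TAF2, against 3.96%. For FOSB it was 9.48% in eGFP and 23.1% in TAF2, at 20 to 35 counts. FOSL2 (1.01%) and IER2 (1.99%) were among the tightest in eGFP and JUND (0.773%) and JUN (1.32%) in TAF2. A spread over 3 libraries is itself uncertain, and the sampling of counts alone gives more of it at low depth. Whether these values are a trait of the genes was not tested.

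Levels between genes were compared per length, as CPM per kilobase of the transcripts matched in GENCODE 29, for the eGFP group first. JUND was highest at 78.6 ± 4.21, above 92.8% of tested genes with a length. IER2 (26.7 ± 0.53) and JUN (26.3 ± 1.62) followed, and these did not differ beyond their spread. FOSL1 stood at 19.2 ± 0.973 and JUNB at 8.79 ± 0.322. ATF3 (7.69 ± 0.348) and EGR1 (7.24 ± 0.729) overlapped, and FOSL2 stood at 5.99 ± 0.0602. FOS at 1.49 ± 0.344 and FOSB at 0.299 ± 0.0283 were lowest (SD, n = 3 each), above 16.4% and 4.40% of tested genes.

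In the TAF2 group the order changed in 2 places. JUN, at 32.8 ± 0.433 CPM per kilobase, stood clear above IER2 at 26.0 ± 1.03, and EGR1 at 8.48 ± 0.328 above ATF3 at 7.04 ± 0.867 (SD, n = 3 each), with no overlap of libraries in either pair. EGR1 and JUNB (8.51 ± 0.274) did not differ beyond their spread. JUND remained highest at 73.0 ± 0.564. FOSL2 lies low on this scale and high in CPM because its matched transcript is 6708 bases long. The lengths of ATF3 (482 to 2033 bases over its transcripts) and FOSL1 (1132 to 1669 bases) vary by isoform, so their places are less certain.

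Position in the genome was set beside each change, since genes of some regions moved together in these libraries. FOSL1 lies on chromosome 11 (65892049 to 65900545, GRCh38.p14), where the 203 other tested genes within 5 Mb had a median log2 fold change of -0.28 and 91.6% were lower. The 719 other tested genes of the whole chromosome also had a median of -0.28, so lower values were not limited to these surroundings. FOSL1's own -0.12 was smaller, and its neighbours CCDC85B and C11orf68 had -0.50 and -0.21. JUN (chromosome 1, 58780791 to 58784047) was at 0.32 among 40 tested genes with a median of 0.03, between MYSM1 at -0.03 and FGGY at -0.39. EGR1 (chromosome 5, 138465479 to 138469303) was at 0.23 among 92 genes with a median of 0.06, beside REEP2 at 0.95 and ETF1 at 0.08. JUND (chromosome 19, 18279694 to 18281622) was at -0.11 among 146 genes with a median of 0.03. For the 9 genes other than FOSL1, the surrounding median lay between -0.04 and 0.07.

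The 10 genes differ in structure. JUN, JUNB and JUND have a single exon in their matched GENCODE 29 transcripts. Of these 1 rose, 1 fell and 1 was not called, where 43.0% of all tested genes were called. EGR1 and IER2 have 2 exons each.

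The kinases and factors upstream of these genes went in both directions. Of 6 genes for serum response factor, which binds CArG boxes, and its partners, 4 rose and 0 fell, against 20.6% higher and 22.4% lower over all tested genes, with a median log2 fold change of 0.09. They were MKL1 (0.19), MKL2 (0.10), SRF itself (0.09) and ELK1 (0.11), all small. Without eGFP replicate 3, chosen after the data were seen, 3 rose. Among 11 RAF, MEK, ERK and RSK kinase genes 2 rose and 1 fell (median 0.00), where 43.0% of all tested genes were called. The ERK target kinase RPS6KA1 fell by 0.40 on the log2 scale, and RPS6KA3 (0.15) and MAP2K2 (0.08) rose.

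Of 14 tested JNK and p38 pathway genes 4 rose and 3 fell, and their median log2 fold change was 0.03. Those 7 stand near the background of 43.0% called over all tested genes. The JNK scaffold MAPK8IP2 rose from 4.22 ± 0.490 to 19.8 ± 0.596 CPM (SD, n = 3 each), or 2.23 on the log2 scale (edgeR adjusted p = 1.83e-23). The JNK genes MAPK8 (-0.04) and MAPK9 (0.03) were not called. MAPK12 (0.46), MAP3K1 (0.21) and MAP2K7 (0.12) rose, and MAP2K3 (-0.13), MAP2K6 (-0.28) and MAPK13 (-0.11) fell. Among 6 genes of ubiquitin ligases that act on JUN, ITCH and CUL4A rose (0.09 each) and DDB1 fell by 0.18 on the log2 scale, and FBXW7, RFWD2 and DET1 were not called. These 3 called of 6 are likewise near that background.

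Among other bZIP factors, which pair with or resemble FOS, JUN and ATF3, CEBPB and ATF4 rose and NFE2L1 fell. Of 23 tested, 6 rose and 3 fell, with a median log2 fold change of 0.04, and the 9 called are near the 43.0% of all tested genes. CEBPB, a liver bZIP factor, rose from 147 ± 3.37 to 184 ± 3.58 CPM (SD, n = 3 each; 0.32), with the stress factor ATF4 (0.20) and the small MAF proteins MAFG (0.25) and MAFK (0.21). NFE2L1 (-0.26), ATF6B (-0.13) and ATF2 (-0.15), the JUN partner at the TGACATCA element shown above, fell. JDP2, the closest relative of ATF3 on the list and the nearest tested gene downstream of FOS, was not called (0.06).

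Of 39 other immediate early genes 30 were tested, and 11 rose and 5 fell, with a median log2 fold change of 0.09. Over all tested genes 20.6% were higher, 22.4% lower and the median was 0.00. Without eGFP replicate 3 the counts were again 11 and 5. The kinase SGK1 rose from 10.5 ± 1.54 to 21.6 ± 1.11 CPM (SD, n = 3 each; 1.05), and KLF6 (0.25), PPP1R15A (0.32) and ZFP36L1 (0.22) rose by less. NFKBIZ, an inhibitor-like cofactor of NF-kB, fell from 29.5 ± 0.723 to 17.9 ± 1.08 CPM (-0.72), and MIDN (-0.15), PER1 (-0.30) and ID2 (-0.22) fell. These were named by smallest p, and larger changes stood outside that choice: CTGF (0.75), IER3 (0.72) and IER5 (0.45) rose and SOCS3 (-0.68) fell. The untested genes, EGR2, EGR3, EGR4, NR4A2, NR4A3, KLF2, DUSP2, GEM and ARC, were all under 0.4 CPM on average in both groups.

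Genes with described AP-1 sites went both ways. Of 23 listed 16 were tested, and 6 rose and 5 fell with a median log2 fold change of 0.02, beside 20.6% higher and 22.4% lower over all tested genes. Osteopontin, SPP1, rose from 336 ± 6.45 to 739 ± 6.86 CPM (1.14) and KRT18 (0.24), NQO1 (0.20) and HMOX1 (0.27) rose. The plasminogen activator PLAU fell from 7.12 ± 0.349 to 2.94 ± 0.100 CPM (-1.27; SD, n = 3 each), as did the matrix protease MMP3 (-1.05) and the metallothionein MT2A (-0.34). CCND1, a cell cycle target of JUN, was not called (0.01). VIM, IL6 and MMP9 had no count in any library.

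**Figure D5:**
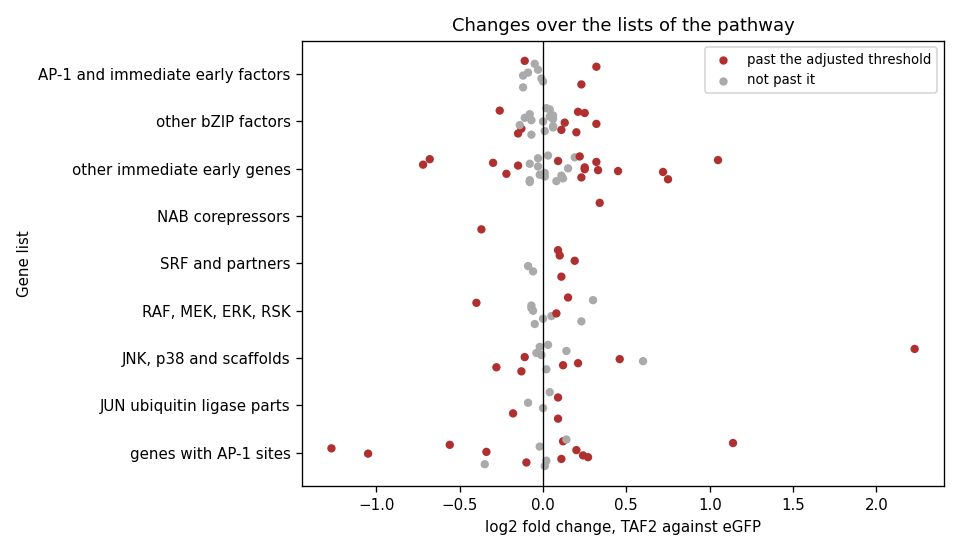
Log2 fold change, TAF2 against eGFP (x axis), of every tested gene in 9 fixed lists (y axis); colour marks genes past the adjusted threshold. The 10 AP-1 and immediate early factors span -0.12 to 0.32, the other immediate early genes -0.72 to 1.05 and the genes with AP-1 sites -1.27 to 1.14.

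Across the 6 libraries, the genes whose log2 CPM followed JUN most closely were TCP1 (Pearson r = 0.9959), AGPS (0.9949) and MED9 (0.9925), among 9978 genes of at least 5 CPM. For JUND they were FAM69A (0.9924), ANKRD13D (0.9871) and PLA2G12A (0.9862). These are descriptions over 6 libraries in 2 groups, so a shared difference between the groups raises r. Of the 9978 genes, 357 had r above 0.95 with JUN and 30 with JUND.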

How the data were processed

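Expected counts per gene, deposited by the authors without normalization, were made with RSEM against hg38, per the submitters' processing notes. For the aligner, annotation release and strand setting, the sources used here say nothing. Between 4.18% and 4.45% of values were not whole and were rounded. Genes kept by filterByExpr (12902) were scaled by TMM and compared by edgeR 4.0.16 (R 4.3.3) with the robust quasi-likelihood test on group alone. P-values were adjusted over all tested genes. SE is the log2 fold change over the root of F. The fit was checked on simulated data. Alternatives used limma 3.58.1, DESeq2 1.42.0 and others. Positions and promoters came from RefSeq (GRCh38.p14) and lengths from GENCODE 29. All 10 genes are described, and in each other list up to 4 genes called in each direction with the smallest p. In results on kinases, ligase parts, other immediate early genes and untested genes, genes outside this rule (such as MAPK8, FBXW7, JDP2, CCND1 and CTGF) were chosen after their values were seen. Genes and lists were chosen with earlier results of these data known. No library was a copy of another: within groups, counts varied beyond sampling noise (chi-square over its degrees of freedom, 1.98 to 5.91). All value columns were used (0 left out). A gene that the rule names is not reported here.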

Additional observations from a re-analysis of the deposited data

How the results depend on the processing

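JUN was called in all alternatives but the test against 1.5-fold, with a log2 fold change of 0.27 to 0.37. Of 150 comparisons of a gene with its main value, 144 stayed on their side of the threshold, 5 lost the call and 1 gained it; FOS and FOSB changed sign in some but were never called. Those lost were JUN, JUND and EGR1 against 1.5-fold and JUND and EGR1 without eGFP replicate 3, and FOSL1 gained it. The test against 1.5-fold called 373 genes in all, against 5548, and 0 of the 10; this follows from its stricter question. The number called of the 10 ran from 1 to 3 when one library was left out, the 1 being without eGFP replicate 3, and over all genes from 4800 to 5288. With DESeq2, 4307 genes were called and 3 of the 10. The fit with the replicate number as a block called 5250 genes and 3 of the 10. Same-numbered libraries did not deviate together (r = -0.123, -0.265 and -0.17 across 10349 genes), so the numbers were not taken as pairs. FOS and FOSB, at 20 to 92 counts, had the lowest depth of the 10 and the widest intervals.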
